A study of Brassica napus with 12 samples.

Results

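Among the 998 genes listed for rapeseed flowers, 88 genes (8.82%) combined a high transcript level in the genotype G67 with a moderate difference between drought and control. They were chosen by measured values, namely a mean of at least 100 FPKM (fragments per kilobase of transcript, scaled to each library's mapped fragments) over the 6 G67 libraries, and a ratio of the G67 drought mean to the G67 control mean above 0.4 and below 4. A further 6 genes were left out by name, and none of them reached the level, since their highest mean was 51.9 FPKM. In all, 100 listed genes had a mean of at least 100 FPKM, of which 9 lay at or below the lower bound of the ratio and 3 at or above the upper bound. Level and ratio in G67 are therefore described below with no test, and the drought response of the genotype G59, which the choice of members did not use, was tested over the whole list, within the limits of that list given below.

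The experiment covered 4 groups of 3 libraries. Flowers of G67, a high-phenolic genotype, came from drought pots (soil relative water content of 10%, watered with 20% PEG6000, a polymer that holds back water from roots) and from control pots (30%, sterile water). Flowers of G59, a low-phenolic genotype, came from drought and control pots under the same regimes. All plants shared a greenhouse with short days, and the harvest of flowers took place 15 days after flowering. Per the methods, the treatment was repeated 3 times and top flowers were taken from the plants of each replicate group and condition, while the labels number the libraries without saying from which plants each was made. SDs and p-values therefore measure the spread between these libraries. Each genotype was 1 accession of its phenolic class, so that genotype and class cannot be told apart. Whole flowers hold many cell types, and fewer cells of a type and less RNA per cell cannot be told apart in these values.

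In a plant organ, a small part of the genes usually supplies a large part of the mRNA. Such abundant transcripts often come from genes for protein synthesis, energy metabolism, cell walls and, in anthers, the coat of the pollen grain. Drought raises abscisic acid, a hormone that closes stomata and switches on protective genes, while growth and its transcripts are commonly held back. Rapeseed carries an A and a C subgenome from its parent species, so that many genes have near-identical copies whose reads are hard to assign. NCBI numbers identify 86 of the 88 members, and the other two are BNAC03G71690D and BNAA03G32230D. A match in RefSeq's gene table for Da-Ae, another rapeseed assembly, was found for 82 of them and not for 6. None of the sources used here gives these identifiers a description, so members are ordered by their values and no function is given. Flower marker genes were not looked up for the same reason.

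The list itself sets limits on what can be read from it. Apart from the 6 genes left out, no listed gene had a G67 ratio between 0.964 and 1.68, and none had a G59 ratio between 0.629 and 1.56. The stretch around equal values was thus empty on the upper side in G67 and on both sides in G59. Still, the G67 libraries of drought and control overlapped in 87 listed genes (8.72%), so that genes without a clear difference in G67 are on the list. In G59 only 20 listed genes (2.0%) overlapped, so that nearly all listed genes were already separated there. A few rows also repeat each other. In G67, 17 sets with 34 genes held the same values in all 6 libraries to 2 decimals (rows above 0.5 FPKM throughout). Among the members, 3 pairs did so, namely LOC106353419 with LOC106353422, LOC106347957 with LOC106348084, and LOC106352081 with LOC106352082. The 88 members thus hold 85 distinct G67 profiles, and each of these pairs differed in G59. In G59, 6 sets with 14 genes were identical, and 0 pairs were identical in both genotypes. LOC106347712 and LOC106353002 shared 3.98, 4.38 and 3.73 FPKM in the G59 drought libraries and were both listed at 0 in the 3 G59 control libraries, although their G67 values differed. Whether a row stands for the same transcript in both genotypes was not tested.

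**Figure D1:**
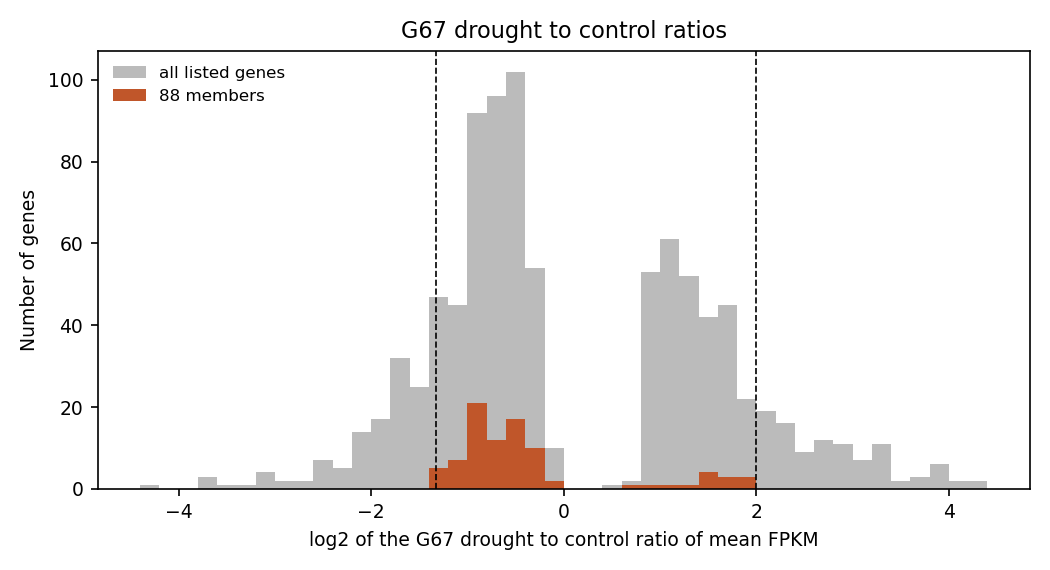
Number of genes (vertical axis) by the log2 of the G67 drought to control ratio of mean FPKM (horizontal axis, bins of 0.2), for 938 listed genes (grey; a further 60 lie beyond the plotted range, at 0 or without a control value) and for the 88 members (orange). The dashed lines mark ratios of 0.4 and 4, and members lie in an interval to the left of 0 with 74 genes and one to the right with 14, with an empty stretch between.

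Most of the abundant members had less transcript under drought. The ratio was below 1 for 74 of 88 members (84.1%), with a range of 0.410 to 0.964 and a median of 0.619. These are called drought-lower members here. The other 14 members, called drought-higher, had ratios of 1.70 to 3.94 with a median of 2.73. Over all 88 members the median ratio was 0.658, against 0.754 over the listed genes, of which 57.0% had a ratio below 1. Among 613 listed genes within the same bounds of the ratio but under 100 FPKM, 57.7% had a ratio below 1, with a median of 0.621 for those below 1 and 2.43 for those above. Abundant members thus had a larger share of genes on the lower side than less abundant genes, and the median ratios on that side were close. This is a description, since the bounds used the same values.

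Ratios were not spread evenly. A ratio from 0.4 to 0.5 was found for 12 members, from 0.5 to 0.6 for 24, from 0.6 to 0.7 for 18, from 0.7 to 0.8 for 11 and from 0.8 to 1 for 9. On the other side, 2 members had ratios below 2, 6 lay between 2 and 3, and 6 lay between 3 and 4. Levels were mostly near the minimum, with 52 members between 100 and 200 FPKM, 24 between 200 and 500, 9 between 500 and 1000, and 3 above 1000. The median of the means over the 6 libraries was 162 FPKM. Only 46 of the 88 members reached 100 FPKM in every one of the 6 G67 libraries.

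The bounds cut through a continuous set of values. The 2 members just inside the minimum level were LOC106349481 (100.1 FPKM) and LOC106352848 (100.5 FPKM), and the 2 genes just outside it were LOC106352898 (99.6 FPKM) and LOC106347637 (98.1 FPKM). At the lower bound of the ratio, LOC106349077 (0.410) and LOC106352082 (0.414) lay inside, and BNAANNG30680D (0.3997) and LOC106348398 (0.393) lay outside. The upper bound was different, as LOC106345834 (3.94) and LOC106354263 (3.55) lay inside and the nearest abundant genes outside were LOC106345884 (10.5) and LOC106348971 (30.8).

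**Figure D2:**
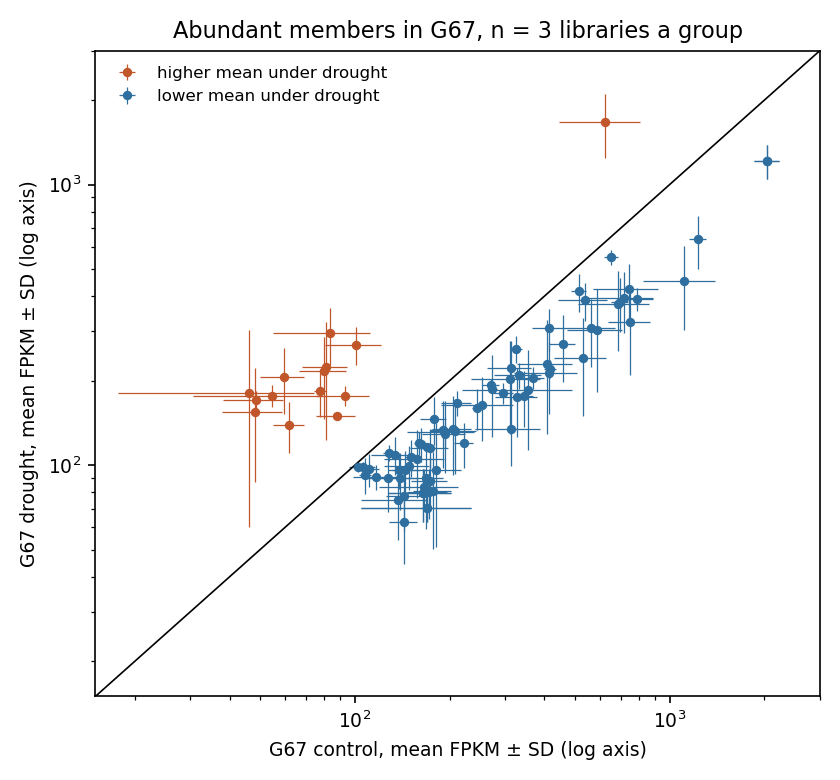
Mean FPKM ± SD of the 88 members in G67 drought (vertical log axis) and G67 control (horizontal log axis), with n = 3 libraries a group and the line of equal values. The 74 drought-lower members (blue) lie below the line along the whole range of levels, and the 14 drought-higher members (orange) lie above it, with LOC106347282 as the only orange point above 1000 FPKM under drought.

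The members with the highest levels were mostly lower under drought. LOC106353419 and its identical row LOC106353422 had 1414, 1148 and 1094 FPKM in the drought libraries, against 2199, 1832 and 2087 FPKM in the control libraries. The highest drought value lay below the lowest control value, and the ratio of the means was 0.597. LOC106349490 had 782, 624 and 508 FPKM under drought, against 1313, 1160.5 and 1217 FPKM in control, a ratio of 0.519. Its groups did not overlap either, and the drought libraries were further apart than the control libraries. LOC106349077 had the lowest ratio of all members (0.410), with 629.8, 371 and 362 FPKM under drought, against 1257, 779.8 and 1287 FPKM in control. Here control replicate 2 stood apart from the other control libraries, yet all 3 drought libraries were below it.

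Other abundant members differed less, or with less spread. LOC106347045 had 515, 584 and 553 FPKM under drought, against 682, 617 and 659 FPKM in control, a ratio of 0.844 without overlap. LOC106347931 had 431, 359 and 382 FPKM under drought, against 865, 685 and 820.0 FPKM in control, a ratio of 0.495. All 3 of its drought libraries were far below the lowest control library. LOC106349169 had 525, 334 and 419 FPKM under drought, against 808, 549 and 879 FPKM in control, a ratio of 0.571, and drought replicate 1 came close to control replicate 2.

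LOC106347282 was the exception among the most abundant members. Its values were 1188, 2007 and 1822 FPKM in the drought libraries, against 452, 614 and 809 FPKM in the control libraries. Every drought library was above every control library, and the means were 1673 ± 430 FPKM under drought and 625 ± 179 FPKM in control (SD, n = 3 each), a ratio of 2.68. By group mean it ranked 1 among the members under drought and 12 in control. In drought replicate 1 it lay below LOC106353419, so that the first rank under drought rests on replicates 2 and 3.

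The order of the members was partly kept between the conditions. The rank correlation of drought and control means across the 88 members was 0.613, a description across genes that share their libraries. Of the 20 members with the highest means under drought and the 20 with the highest means in control, 18 were the same. Drought-higher members made up 3 of the 20 under drought and 1 of the 20 in control. Across the drought-lower members, the ratio tended to be smaller where the control level was higher, with a rank correlation of -0.351, and both measures hold the control mean.

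Below the most abundant members, a second set had the smallest ratios. LOC106352081 and its identical row LOC106352082 had 70.0, 63.1 and 77.8 FPKM in the drought libraries, against 198, 216 and 95.3 FPKM in the control libraries, a ratio of 0.414. Control replicate 3 was far below the other control libraries for this profile. LOC106345818 had 162, 145 and 94.9 FPKM under drought, against 233, 332 and 376 FPKM in control, a ratio of 0.428. LOC106346458, one of the more abundant members with 453, 285 and 234 FPKM under drought against 875, 654 and 725 FPKM in control, had a ratio of 0.431. In each of these members all drought libraries were below all control libraries.

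At the other end, a few members were close to equal in both conditions. LOC106345293 had 94.2, 102 and 100.4 FPKM in the drought libraries, against 101, 107 and 99.0 FPKM in the control libraries, a ratio of 0.964. BNAA03G32230D had 102, 99.7 and 93.2 FPKM under drought, against 117, 97.3 and 104 FPKM in control, a ratio of 0.926. The groups overlapped in both genes. LOC106354554 also overlapped, with 84.3, 109.9 and 95.8 FPKM under drought, against 115, 117 and 101 FPKM in control (ratio 0.870). LOC106346157 did not, with 103, 114 and 115 FPKM under drought, against 134, 126 and 125 FPKM in control (ratio 0.862).

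**Figure D3:**
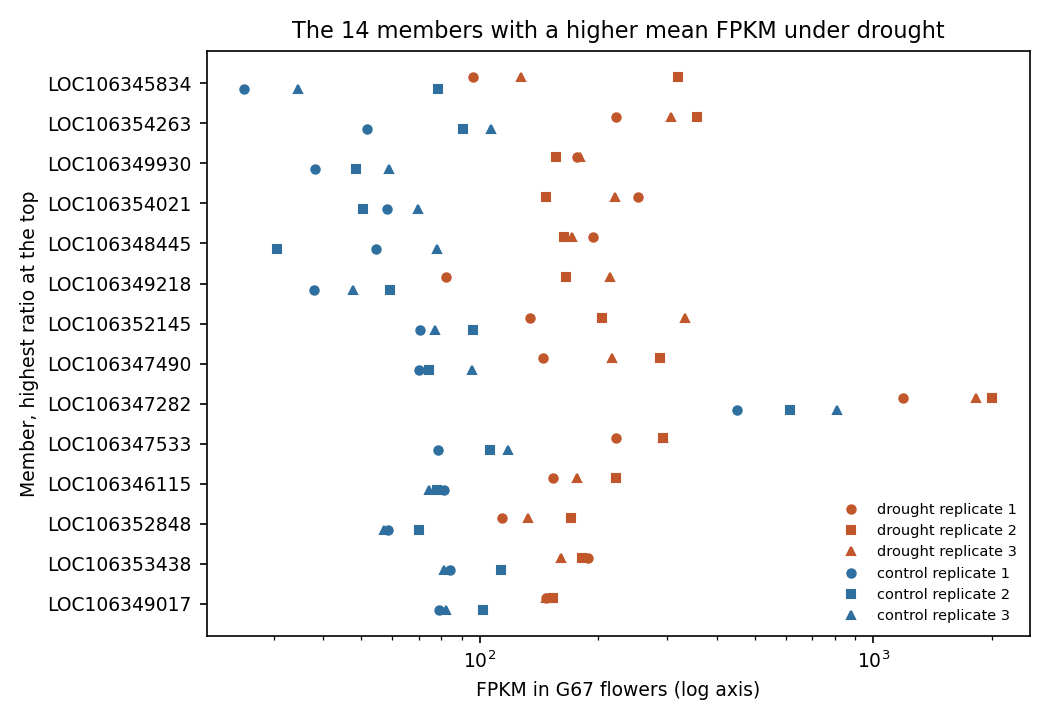
FPKM of the 14 drought-higher members in each G67 library (horizontal log axis), with members down the page by ratio, drought libraries in orange, control libraries in blue and symbols for the replicate number. In every row the 3 drought symbols lie to the right of the 3 control symbols, while the distance between replicates differs widely between rows.

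The drought-higher members were less abundant in control than the rest. Their median level was 183 FPKM under drought and 78.9 FPKM in control, whereas the drought-lower members had medians of 134 FPKM under drought and 209 FPKM in control. Apart from LOC106347282, their drought means lay between 139 and 296 FPKM. LOC106354263 had 222, 357 and 307 FPKM under drought, against 51.7, 91.0 and 107 FPKM in control, a ratio of 3.55. LOC106349930 had 177, 157 and 179.7 FPKM under drought, against 38.2, 48.6 and 58.9 FPKM in control, a ratio of 3.52. The drought libraries of LOC106349930 were close to each other. LOC106354021 had 253, 147 and 220.4 FPKM under drought, against 58.1, 50.7 and 69.8 FPKM in control, a ratio of 3.47, and replicate 2 was the lowest in each condition. LOC106347533 had 222, 292 and 293 FPKM under drought, against 78.6, 106 and 118 FPKM in control, a ratio of 2.66.

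Some ratios in this group came from widely spaced replicates. LOC106345834 had the highest ratio of all members (3.94), with 96.3, 320.1 and 127 FPKM in the drought libraries, against 25.2, 78.3 and 34.6 FPKM in the control libraries. Replicate 2 was the highest in both conditions, and the lowest drought value was little above the highest control value. LOC106349218 had 82.1, 166 and 215 FPKM under drought, against 38.1, 59.1 and 47.8 FPKM in control, a ratio of 3.20. LOC106348445 had 195, 164 and 172 FPKM under drought, against 54.5, 30.6 and 78.2 FPKM in control (ratio 3.25), so that here the control libraries were the more variable. The smallest differences of the group were in LOC106349017 (147, 153 and 147 FPKM under drought, against 78.8, 102 and 82.3 FPKM in control, ratio 1.70) and LOC106353438 (188, 182 and 161 FPKM under drought, against 84.0, 113 and 81.4 FPKM in control, ratio 1.91).

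The separation of the libraries was counted for each direction. All 3 drought libraries were above all 3 control libraries in 14 of 14 drought-higher members. These were 15.9% of all members, while 42.7% of the 998 listed genes had this pattern. All drought libraries were below all control libraries in 56 of 74 drought-lower members. These were 63.6% of all members, while 48.6% of the listed genes had that pattern. Sorted by direction too, 426 of 429 listed genes with a higher drought mean were separated, and 485 of 569 with a lower mean. Nothing is read from these counts, since the choice of members used the same libraries. The other 18 members overlapped, with ratios of 0.523 to 0.964 (median 0.708), and 6 of them had ratios of 0.8 or more. LOC106354203 had the smallest ratio among those that overlapped, with 257, 187 and 112 FPKM under drought, against 256, 509 and 298 FPKM in control. Its drought replicate 1 was as high as control replicate 1, and control replicate 2 was far above the other control libraries.

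The replicate number moved with the level of many members. Among the drought-lower members, drought replicate 1 was the highest of its group in 56 of 74 (75.7%) and drought replicate 3 the lowest in 51 of 74 (68.9%). Control replicate 1 was the highest in 47 of 74 and control replicate 2 the lowest in 50 of 74 (67.6%). Among 354 listed genes with ratios from 0.4 to 1 and under 100 FPKM, drought replicate 1 was highest in 64.7%, drought replicate 3 lowest in 63.0% and control replicate 2 lowest in 39.5%. The order of the drought libraries was thus shared with less abundant genes, and the low place of control replicate 2 was more frequent among the members. Among the drought-higher members, replicate 1 was the lowest of its group in 10 of 14 under drought and in 9 of 14 in control.

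Compared by the same replicate number, the median ratio of the drought-lower members was 0.682 for replicate 1, 0.627 for replicate 2 and 0.524 for replicate 3. In 68 of 74 of them, all 3 same-number ratios were below 1. The exceptions were LOC106353966, LOC106353093, LOC106354203, BNAA03G32230D, LOC106345293 and LOC106349481, named here after their values were seen. In the drought-higher members, all same-number ratios were above 1 in 14 of 14. The spread of replicates was that of the list as a whole, with a median coefficient of variation of 20.9% under drought and 14.7% in control for the members, and 21.0% under drought and 15.5% in control for the listed genes.

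**Figure D4:**
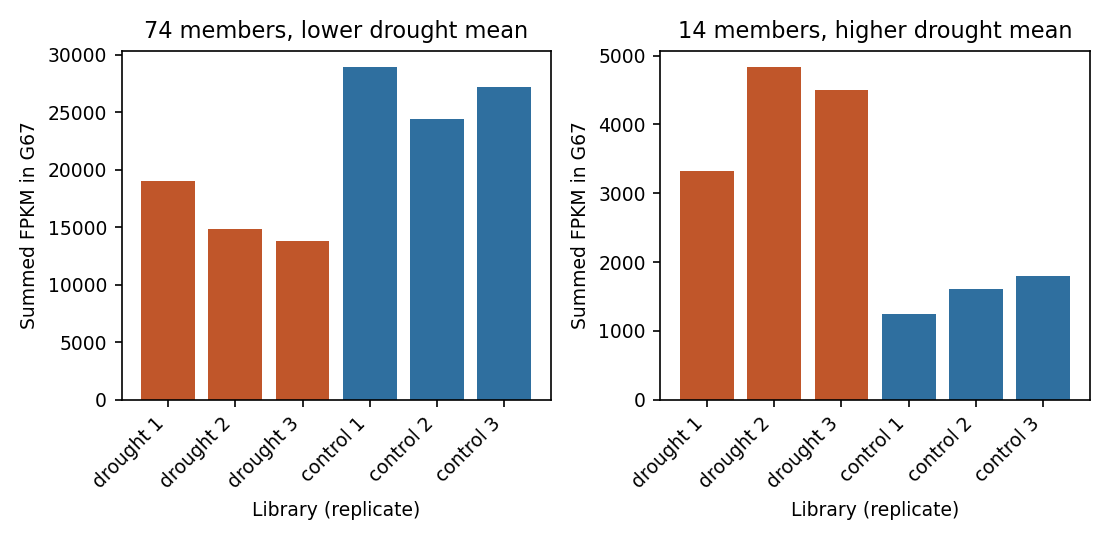
Summed FPKM in each of the 6 G67 libraries (bars from 0), for the 74 drought-lower members (left) and the 14 drought-higher members (right), with drought in orange and control in blue. The drought bars are lower than all control bars on the left, with replicate 1 the highest in each condition, and higher than all control bars on the right, with replicate 1 the lowest in each condition.

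Summed over genes, the members supplied a large part of the listed transcript. The 74 drought-lower members summed to 19000.4, 14875 and 13813 FPKM in the drought libraries, against 28905, 24388 and 27218 FPKM in the control libraries. The means were 15896 ± 2740 FPKM under drought and 26837 ± 2282 FPKM in control (SD, n = 3 each), a ratio of 0.592. The 14 drought-higher members summed to 3318, 4830.5 and 4504 FPKM under drought, against 1239, 1612 and 1791 FPKM in control, a ratio of 2.73. The gain of the drought-higher members was thus much smaller in FPKM than the deficit of the drought-lower members. The bounds shape this balance and the shares below, since they left out 9 abundant genes with smaller ratios and 3 with larger ratios. Among the latter, LOC106345884 alone had means of 3668 FPKM under drought and 350 FPKM in control. Together the members held 51.4%, 45.8% and 46.8% of the summed FPKM of all listed genes in the drought libraries, against 58.9%, 57.2% and 59.7% in the control libraries. All 3 drought shares were below all 3 control shares. These are shares of the 998 listed genes and not of whole libraries.

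FPKM are relative to each library, so the scale of the libraries bears on small differences. With median-ratio scaling within the 6 G67 libraries, over 944 genes, drought was shifted against control by 0.27 on the log2 scale. The median ratio was then 0.787 for all members, 0.746 for the drought-lower and 3.36 for the drought-higher members. Relative to this scale, 68 members had a ratio below 1 and 20 above. The 6 drought-lower members that turned were LOC106347045 (1.02), LOC106349481 (1.04), LOC106346157 (1.05), LOC106354554 (1.05), BNAA03G32230D (1.12) and LOC106345293 (1.17). The direction given above for these 6 members thus depends on the scale, and that of the other 82 was the same under both.

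Few members are known to lie near each other. In the Da-Ae annotation, LOC106350863 and LOC106350854 are next to each other with 0 genes between them, and their G67 ratios were 0.789 and 0.545. LOC106352729 and LOC106352724 are separated by 8 genes, and their ratios were 0.529 and 0.666. Both pairs thus had lower means under drought, as did most members.

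**Figure D5:**
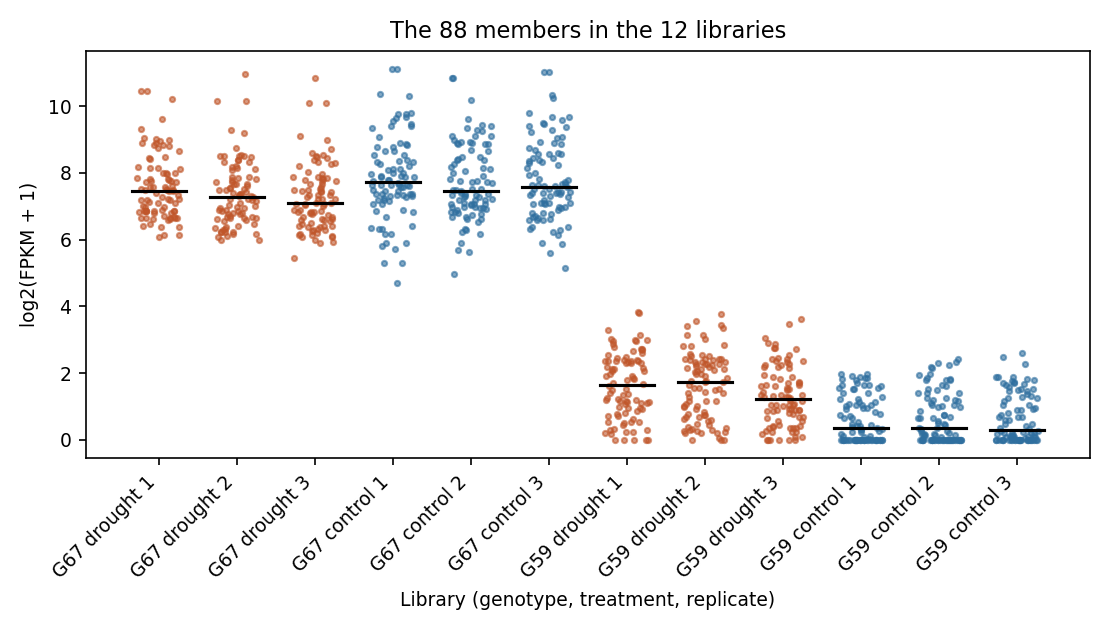
Level of the 88 members, as log2(FPKM + 1), in each of the 12 libraries (points, with random horizontal offsets), with the median of each library as a black line, drought in orange and control in blue. The 6 G67 libraries lie well above the 6 G59 libraries without overlap, and in G59 the drought medians lie above the control medians.

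In G59 the same identifiers were listed at very low levels. The highest value of any member in any G59 library was 13.3 FPKM and the lowest in any G67 library was 25.2 FPKM, so that in 88 of 88 members all G67 values were above all G59 values. Among the other listed genes this held for 58.0%. Since the level in G67 chose the members, no test of the genotypes is given. The median of the group means was 2.15 FPKM in G59 drought and 0.235 FPKM in G59 control. Over all listed genes it was 1.985 FPKM in G59 drought and 0.627 FPKM in G59 control. Of the 88 members, 21 were listed at 0 in all 3 G59 control libraries and 3 in all 3 G59 drought libraries. Of the other listed genes, 21.0% were at 0 in all 3 G59 control libraries and 3.41% in all 3 G59 drought libraries. The members' share of the summed listed FPKM was 5.10%, 4.76% and 5.21% in the G59 drought libraries, against 7.42%, 7.09% and 7.99% in the G59 control libraries. The sum over all listed genes also differed, with 3439 to 5267 FPKM in G59 drought and 883 to 1059 FPKM in G59 control, against 39158 to 43412 FPKM in G67 drought and 45469 to 51160 FPKM in G67 control. The low values of G59 were thus seen over the list as a whole.

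Within the members, the level in G67 gave little guide to the level in G59. The minimum level narrowed the G67 range of the members, and no such value over all listed genes is given. The rank correlation of the genotype means across the members was 0.146, and that of G59 drought with G59 control was 0.129, both as descriptions across genes at low values. The highest members in G59 were LOC106354203, LOC106349398 and LOC106354021. LOC106354203 had 13.0, 12.5 and 10.1 FPKM in G59 drought, against 1.89, 3.73 and 2.23 FPKM in G59 control. LOC106349398 had 13.3, 9.77 and 5.53 FPKM in G59 drought, against 1.41, 1.83 and 1.77 FPKM in G59 control. In both, every drought library was above every control library. LOC106354021 had 6.76, 7.91 and 6.53 FPKM in G59 drought, against 1.92, 2.05 and 2.71 FPKM in G59 control, and its row was the same in G59 as those of LOC106348723 and LOC106354022.

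The G59 drought response was tested with limma on log2(FPKM + 1) over all 998 genes (all 4 groups in 1 fit). Each gene's SE and p-value thus rest on the spread of the G67 libraries as well as of the G59 libraries. Calls needed a Benjamini-Hochberg adjusted p no higher than 0.05 together with a log2 fold change of 1 or more in size. Of the members, 46 (52.3%) were called higher in drought, while 47.3% of the listed genes were, and 4 (4.55%) were called lower, while 6.71% of the listed genes were. The other 38 members did not pass. These shares were near those of the whole list. Since nearly all listed genes were separated in G59, the calls and their adjusted p-values concern genes that already show the pattern tested and are no independent evidence of a response. The median log2 fold change was 1.06 for the members and 0.98 for the listed genes, on a scale that understates the change of low genes. Of the drought-higher members, 8 were called higher and 2 lower in G59, and of the drought-lower members 38 were called higher and 2 lower. Shares of the listed genes with the same G67 direction are not given for these counts, so nothing is read from the split.

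All 3 G59 drought libraries were above all 3 G59 control libraries in 68 members (77.3%), while 78.3% of the listed genes had this pattern. They were all below in 20 members (22.7%), while 19.7% of the listed genes had it. No member overlapped. For a single gene, the exact two-sided permutation test of 3 against 3 libraries cannot give a p below 0.1.

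Scale also bore on the G59 counts. With median-ratio scaling of the 12 libraries, 35 members (39.8%) were called higher and 18 (20.5%) lower, while 34.4% of the listed genes were called higher and 19.4% lower. With quantile normalization, 32 members (36.4%) were called higher and 23 (26.1%) lower, while 26.1% of the listed genes were called higher and 21.9% lower. The median log2 fold change was 0.50 for the members and 0.56 for the listed genes with median-ratio scaling, and 0.45 for the members and 0.29 for the listed genes with quantile normalization. The sign turned to lower in 6 members with median-ratio scaling and in 15 with quantile normalization.

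The largest rises in G59 on the log2(FPKM + 1) scale were of members at or near 0 in control. Their size and order depend on the pseudocount, since with 0.1 the log2 fold changes were 5.21 for LOC106347931, 5.29 for LOC106353438, 4.96 for LOC106345859 and 5.37 for LOC106353002. LOC106347931 had 7.10, 10.7 and 7.33 FPKM in G59 drought, against 0.17, 0 and 0.32 FPKM in G59 control (log2 fold change 3.0, SE 0.19, limma adjusted p = 1.57e-07). This gene was lower under drought in G67, with a ratio of 0.495. LOC106353438 had 7.0, 9.20 and 1.72 FPKM in G59 drought, against 0, 0 and 0.10 FPKM in G59 control (log2 fold change 2.55, SE 0.37, limma adjusted p = 1.01e-04). It was higher under drought in G67 too, and G59 drought replicate 3 was well below the other two. LOC106345859 had 6.98, 6.07 and 2.03 FPKM in G59 drought, against 0, 0 and 0.21 FPKM in G59 control (log2 fold change 2.38, SE 0.29, limma adjusted p = 3.09e-05). In G67 it was one of the least variable members, with 114, 116 and 117 FPKM under drought, against 163, 175 and 170.5 FPKM in control. LOC106353002, at 3.98, 4.38 and 3.73 FPKM in G59 drought and 0 in G59 control, rose by 2.33 on the log2 scale (limma adjusted p = 4.14e-06), with the same G59 row as LOC106347712. Their SEs still differed (0.22 and 0.16), since the G67 libraries entered the fit. When limma was fitted to the G59 groups only, the adjusted p was 1.27e-04 for LOC106347931 and 0.00313 for LOC106353438. It was 0.00183 for LOC106345859 and 5.92e-05 for LOC106353002, so all of these were larger than in the fit of 4 groups.

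Of the most abundant members, LOC106347282 rose in G59, with 4.19, 4.81 and 3.83 FPKM in G59 drought, against 0.95, 0.80 and 0.62 FPKM in G59 control (log2 fold change 1.56, SE 0.24, limma adjusted p = 1.47e-04), and its G67 drought libraries were also above control. With median-ratio scaling its log2 fold change was 0.93, below the threshold. LOC106353419 and LOC106353422, alike in G67, had different G59 rows. LOC106353419 had 6.81, 6.0 and 2.10 FPKM in G59 drought, against 0.58, 0.60 and 0.94 FPKM in G59 control (log2 fold change 1.70). LOC106353422 had 2.75, 2.95 and 0.88 FPKM in G59 drought, against 0, 0.05 and 0.05 FPKM in G59 control (log2 fold change 1.55). Both were called higher. The pair LOC106352081 and LOC106352082 even differed in direction, as LOC106352081 had 4.28, 3.35 and 0.70 FPKM in G59 drought and 0 in G59 control, whereas LOC106352082 had 0.43, 0.28 and 0.28 FPKM in G59 drought, against 1.04, 1.64 and 1.37 FPKM in G59 control.

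By the limma test with the fold threshold, 4 members (4.55%) fell in G59, while 6.71% of the listed genes did. With the adjusted p alone, 16 members (18.2%) were lower, while 18% of the listed genes were. The 4 that passed both thresholds are described here. LOC106354263 had 0, 0.20 and 0 FPKM in G59 drought, against 2.62, 4.35 and 5.13 FPKM in G59 control (log2 fold change -2.21, SE 0.29, limma adjusted p = 4.80e-05). The log2 fold change was -4.79 with a pseudocount of 0.1, -3.93 with median-ratio scaling and -7.11 with quantile normalization. In G67 the same identifier had one of the highest ratios (3.55). LOC106347533 was likewise higher under drought in G67 (2.66) and fell in G59, with 0.65, 0.23 and 0.06 FPKM in G59 drought, against 1.85, 1.38 and 1.61 FPKM in G59 control (log2 fold change -1.01, limma adjusted p = 1.04e-03). Its call lies at the threshold and was lost without G59 drought replicate 2 (-0.98), G59 drought replicate 3 (-0.87) or G59 control replicate 1 (-0.95). LOC106346279 had 0.80, 0.35 and 0.17 FPKM in G59 drought, against 2.11, 4.01 and 1.82 FPKM in G59 control (log2 fold change -1.32, limma adjusted p = 1.46e-03). LOC106354274 had 0.72, 0.66 and 0.49 FPKM in G59 drought, against 2.27, 2.87 and 2.30 FPKM in G59 control (log2 fold change -1.10, limma adjusted p = 2.36e-04). These last genes were lower under drought in G67 as well, with ratios of 0.457 for LOC106346279 and 0.468 for LOC106354274.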

How the data were processed

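Flower RNA of 4 groups was sequenced, with 12 libraries used here as separate samples, although the methods speak of 4 cDNA libraries. Reads were quality-filtered by the authors, aligned to the Darmor-bzh genome (the aligner is not given in the sources used here) and turned into FPKM with Cufflinks 2.0.0. Each deposited library table gives FPKM of 998 genes, rounded to 2 decimals. The table of the series repeated the G67 values (5988 of 5988 equal). Its column with the ratio of means was not used. Steps of 1 read were sought among low values, as multiples of a gene's lowest value. Only 43.8% in G67 and 35% in G59 were within 0.15 of a whole multiple, so depth is unknown and no count test was run. Exact zeros are given as listed at 0.

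Members were found by recomputing means and ratios from the library columns. Since the choice used the G67 values, only the G59 contrast was tested, on log2(FPKM + 1) in R 4.3.3 with limma 3.58.1, 1 coefficient per group and no trend, checked first on simulated data. Python 3.11.15 with pandas 2.3.3, numpy 2.4.6 and matplotlib 3.10.9 gave the tables and figures. The members and lists were chosen with earlier results of these data known. Genes named are the 8 with the highest G67 mean, the 4 with the highest and the 4 with the lowest ratio, the 4 nearest to 1, the 3 with the most variable replicates, the 4 called members that rose most and the 4 that fell most in G59, the 3 with the highest G59 mean and the 2 on each side of each threshold. Identical pairs, neighbours, LOC106346458, LOC106349017 and the genes that turned with scaling were added after their values were seen.

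In G67, libraries with the same replicate number deviated together across the listed genes (replicate 1, 0.438, replicate 2, 0.190, and replicate 3, 0.194, as correlations). Drought replicate 3 went with control replicate 2 at 0.153, close to the same-number values of replicates 2 and 3. By these values the number clearly pairs only replicate 1 of G67 over the list. Among the members the correlations were 0.555, 0.557 and 0.048, and among those with lower drought means 0.228, 0.384 and -0.160, where drought replicate 3 went with control replicate 2 instead (0.269 among all members and 0.241 among those with lower drought means). Same-number ratios of replicate 3 therefore rest on the number alone. Alternatives were other pseudocounts, a minimum mean, scaling, quantile normalization, a fit of G59 alone, an intensity trend, a replicate block, other thresholds, and each library left out in turn. Names and neighbours came from the RefSeq table of Da-Ae, another assembly than the one mapped to, so no coordinates are given. That table holds no descriptions or sequences, and the planned family words, marker genes and promoter motifs were not used here.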

Additional observations from a re-analysis of the deposited data

Results flagged for a closer look

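Drought and control differed in opposite directions between the genotypes for many members, as they did for many listed genes. The summed FPKM of the 74 members with lower means under drought in G67 had a drought to control ratio of 0.592 in G67 and of 3.47 in G59. Summed over all listed genes, the ratio was 0.865 in G67 and 4.77 in G59, and over the listed genes with a G67 ratio below 1 it was 0.562 in G67 and 3.19 in G59. The members' share of the summed FPKM was lower in drought than in control libraries in both genotypes. All G67 drought libraries were lower and all G59 drought libraries higher than their controls in 43 members (48.9%), while 37% of the listed genes had this pattern. The opposite held in 5 members (5.68%), while 7.11% of the listed genes had it. Of those with all drought libraries lower in G67, 43 of 56 members and 369 of 485 listed genes were higher in G59. Of those with all drought libraries higher in G67, 5 of 14 members and 71 of 426 listed genes were lower in G59. The difference between the genotypes was not tested, since the G67 direction took part in the choice of the members. The G59 values are low, identical rows of 1 genotype differ in the other, and scaling of the libraries turned some G59 directions. The part of each in these counts was not tested.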

How the results depend on the processing

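The limits are the missing depth of each library, the low G59 values and a list with few genes near equal values. In G59, 50 members were called, with 46 higher (52.3%, against 47.3% of the listed genes) and 4 lower (4.55%, against 6.71%). The replicate block gave 50 as well (46 higher and 4 lower) and changed no count of calls. The numbers share only a number there (same-number correlations 0.010, -0.008 and -0.132). With a pseudocount of 0.1 or of 0.01, 84 members (95.5%) were called (65 higher, 19 lower), against 92.4% or 93.2% of the listed genes, and with the adjusted p alone 79 (89.8%), against 91.6%. The effect of the pseudocount follows from values near 0, where a smaller one gives larger log2 differences. Leaving out 1 G59 library gave 48 to 52. The other alternatives for this count gave 49 to 55. Listed shares are given for the main setting, the smaller pseudocounts, the adjusted p alone, median-ratio scaling and quantile normalization. For the remaining settings none are given, so nothing particular to the members is read from those counts. The median G67 ratio of 0.658 became 0.787 with scaling within the 6 G67 libraries, and 0.582 to 0.70 without 1 library. Members without overlap in G67 numbered 70, with 14 higher (15.9%, against 42.7% of the listed genes) and 56 lower (63.6%, against 48.6%). They numbered 52 with that scaling and 70 to 82 without 1 library. Leaving out a library cannot make separated groups overlap, so the counts without 1 library could not fall below 70 and are no check. Listed shares for these alternatives are not given here. The rule gave 46 members when 100 FPKM was asked of every library, 78 with group medians, and 78 to 91 without 1 library. Single genes were refitted for the most abundant members, those with the lowest ratios and those named for G59. LOC106349490, not called at 0.66, reversed with median-ratio scaling (-0.39) and quantile normalization (-1.21), and none of the others refitted did. With median-ratio scaling, LOC106354203 (0.85), LOC106347282 (0.93), LOC106347045 (0.42), LOC106345818 (0.41) and LOC106354021 (0.32) dropped below the fold threshold, and with quantile normalization LOC106347045 (0.64), LOC106345818 (0.53) and LOC106354021 (0.48) did. The cause was not tested.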
